A study of Mus musculus with 12 samples.

Results

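The Notch receptors, ligands and targets described here are 10 genes chosen by name: the receptors Notch1, Notch2, Notch3 and Notch4, the ligands Jag1, Jag2 and Dll1, and the target genes Hes1, Hey1 and Heyl. All 10 were found among the 37583 genes counted in the series, and 9 of them passed the filter on low counts and were tested. Heyl was at 0 in 4 libraries and was not tested. They were measured by RNA-seq in Ocy454, a mouse line derived from long bone osteocytes, the cells embedded in bone matrix that sense mechanical load. Control cells, labelled as the original cells, were compared with DKO cells, labelled as deleted for the class IIa histone deacetylases HDAC4 and HDAC5. Both were kept static or exposed for 3 h to fluid flow shear stress (FFSS), with 3 libraries in each of the 4 groups. The study asked how shear stress changes osteocyte gene expression and whether HDAC4 and HDAC5 are needed for it.

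Every group shares the background of the line. Ocy454 carries a temperature-sensitive T antigen that is switched off by a warmer culture before the cells differentiate, and FFSS was applied by orbital rotation of the culture dishes. Whether the DKO line is 1 clone is not given in the sources used here, so an effect of the deletions and a difference between lines cannot be told apart. No source says that the replicates of a group were separate cultures. The p-values therefore measure only the spread between these libraries, which may be technical.

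Notch signalling passes between touching cells. A Jagged or Delta-like ligand on the surface of a cell binds a Notch receptor on its neighbour, and the pull on the receptor lets ADAM10 and then gamma-secretase cut it. The freed intracellular part enters the nucleus, joins the DNA-binding protein RBPJ and a Mastermind coactivator, and switches on repressors of the Hes and Hey families. In bone, Notch restrains the maturation of osteoblasts, and inherited truncations of NOTCH2 cause Hajdu-Cheney syndrome, with loss of bone.

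The library totals in genes lay between 17585225 and 19174118 counts. Control FFSS replicate 1 stood apart from the other libraries of its group: its counts differed from theirs by a chi-square of 63.8 and 58.0 per degree of freedom, against 6.45 between replicates 2 and 3 and 2.02 to 5.66 within the other groups. Reads in no gene made up 5.87% of that library, 9.19% and 10.04% of its 2 partners, and 5.10% to 5.21% of the control static libraries. Results of the 10 genes that depend on control FFSS replicate 1 for passing the test or the 2-fold limit are given with and without it. Under the longer of the 2 gene IDs that bear its name, Hdac4 fell in DKO cells by 0.85 on the log2 scale in static culture (SE 0.14, adjusted p = 0.000102) and by 1.48 under FFSS. Under the shorter ID the log2 fold change was -0.39 in static culture (SE 0.14, adjusted p = 0.0281), which no longer passed without any 1 of 5 static libraries (adjusted p = 0.0583 to 0.101), and -0.50 under FFSS (adjusted p = 0.00638). Hdac5 fell by 0.65 in static culture (SE 0.08, adjusted p = 7.94e-06), but under FFSS it had 93.3, 92.4 and 92.9 CPM (counts scaled to a common library total) in DKO and 90.2, 71.1 and 82.4 CPM in control libraries. Every DKO FFSS library was thus above every control FFSS library, although DKO cells are labelled as deleted for HDAC5. The log2 fold change was 0.19 (adjusted p = 0.0512) and passed the test in 6 of 20 alternative fits. It ranged from 0.00 (adjusted p = 0.996) when library totals alone set the scale to 0.27 (adjusted p = 0.000487) without control FFSS replicate 1. Counts per gene do not show whether a gene was edited or its protein lost, so they do not settle the label. DKO is used below for the libraries labelled DKO. The summed level of 6 osteocyte markers was 78.1 to 117 CPM in control static and 62.5 to 184 CPM in control FFSS libraries. It was 3602 to 4025 CPM in DKO cells. Sost, which encodes sclerostin, had 28, 41 and 236 counts in the control static and 221, 2 and 46 counts in the control FFSS libraries, and these overlapped. In control cells Phex had 36.8, 23.6 and 39.5 CPM in static and 36.0, 4.8 and 3.9 CPM in FFSS libraries. Dmp1 had 27.5, 23.1 and 37.6 CPM in static and 96.8, 15.7 and 15.8 CPM in FFSS libraries. Pdpn was higher under FFSS, at 43.9 CPM against 28.4 CPM. The sum in DKO cells was made up mostly of Sost, Phex and Dmp1, while Pdpn, also an osteocyte marker, was lower in DKO static cells (28.4 CPM in control, 5.11 in DKO, log2 fold change -2.47, adjusted p = 8.57e-10), and Fgf23 had at most 1 count in any library. The chondrocyte markers Col2a1, Acan, Sox9 and Col10a1 summed to 50.1 to 102 CPM in control cells and 2002 to 2945 CPM in DKO cells. Col2a1 and Col10a1 made up most of the latter, and Acan in static culture was at 5.96 CPM in controls against 4.97 CPM in the DKO line (log2 fold change -0.26, adjusted p = 0.653). Blood markers summed to 23.9 to 28.6 CPM in control static and 2.81 to 3.29 CPM in DKO static libraries, with Cd68, known from macrophages, at 25.5 and 2.32 CPM, while Ptprc was at or below 0.178 CPM in every library. The 5 smooth muscle and pericyte markers summed to 701 to 752 CPM in control static and 566 to 589 CPM in DKO static libraries. Acta2, of smooth muscle, was at 354 CPM in control static and 160 CPM in DKO static cells (log2 fold change -1.15, adjusted p = 0.0169). Pdgfrb was at 272 and 230 CPM in these groups. Cspg4, of pericytes, went the other way, from 103 CPM in control static to 185 CPM in DKO static cells. Genotype thus moved with large changes in some marker genes, and their part in the Notch results was not tested. The 6 endothelial markers summed to at most 1.03 CPM, and Kdr, Emcn and Tie1 had 0 counts in every control static library.

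Levels are given as CPM on totals scaled by TMM factors, and different genes are compared only as CPM per kb of exon. A gene passed the test when the edgeR quasi-likelihood p-value, adjusted by Benjamini-Hochberg over all 14904 genes tested, was under 0.05, and it was called when the change was also more than 2-fold. In bulk RNA, fewer cells of a type and less RNA per cell cannot be told apart. In control static cells Hes1 was the highest at 33.0 CPM per kb, followed by Notch2 at 21.2, Notch3 at 17.2, Jag2 at 13.5, Jag1 at 8.21, Notch1 at 2.29 and Hey1 at 1.53 CPM per kb, and no neighbours among these 7 overlapped between libraries. Heyl at 0.168, Dll1 at 0.158 and Notch4 at 0.111 CPM per kb came last, and the ranges of Heyl and Dll1 overlapped. In DKO static cells Hes1 was again first at 31.0 CPM per kb. Jag2 at 22.3, Hey1 at 21.4 and Notch2 at 20.1 CPM per kb followed with ranges that overlapped from each gene to the next, then Notch3 at 7.16, Jag1 at 2.27 and Notch1 at 0.916 CPM per kb.

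**Figure D1:**
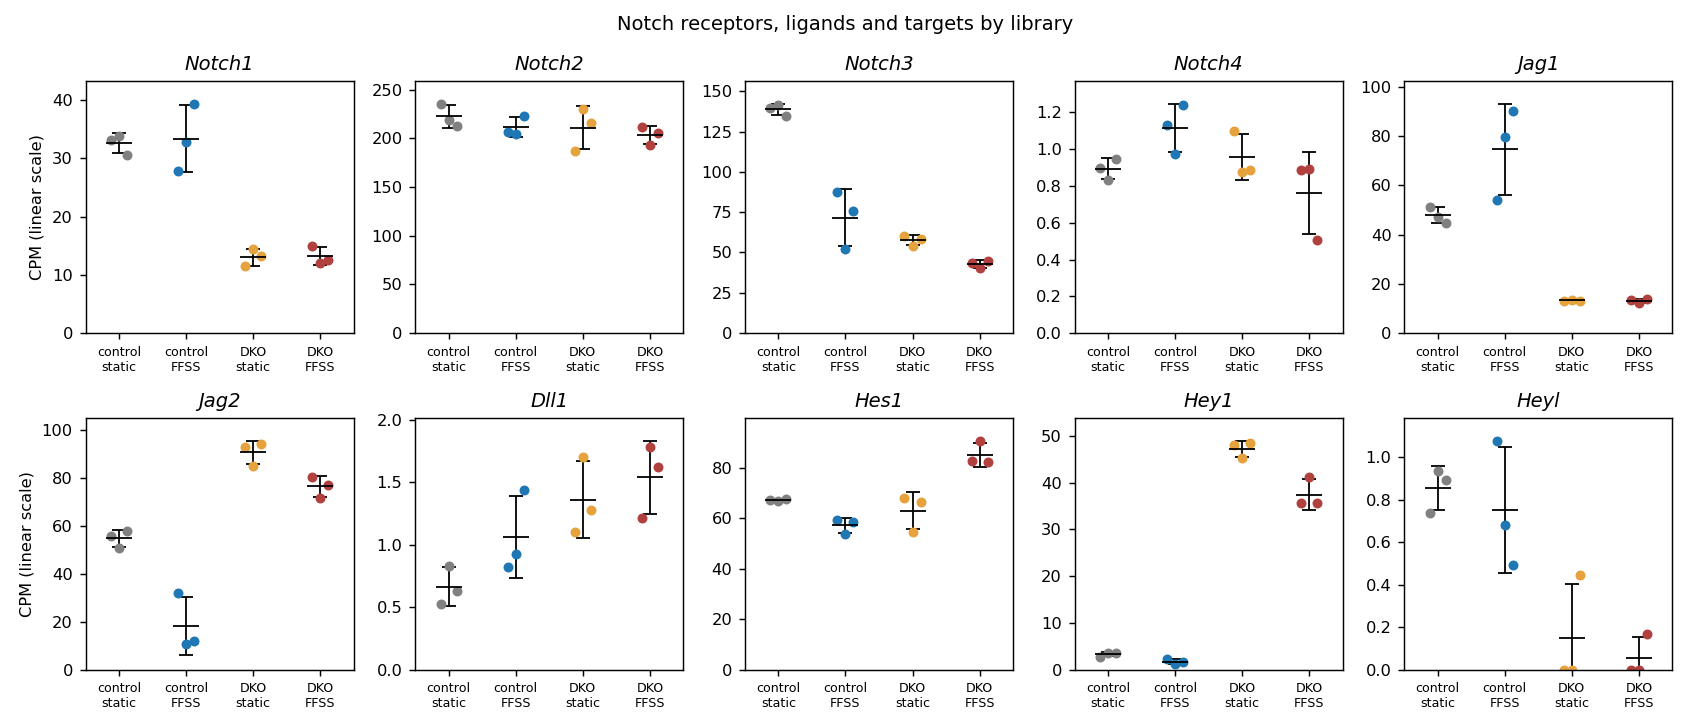
CPM of each of the 10 genes on a linear axis that starts at 0, with 1 point per library in the 4 groups and the mean and SD of 3 libraries as black lines. Hey1 sat at 1.221 to 3.65 CPM in all control libraries and at 35.6 to 48.5 CPM in all DKO libraries, and Jag1 and Notch1 were lower in every DKO library than in any control library.

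The upstream sequences of Notch1, Notch3, Jag1 and Jag2, the receptors and ligands with the largest fitted differences between genotypes under FFSS, are shown because Hes and Hey proteins are repressors that bind short DNA motifs. RefSeq promoter windows (GRCm38.p6) were matched for 7 of the 10 genes, in 8 windows, and Hes1, Hey1 and Heyl had no entry. The 250 bases before the start site are printed 5′ to 3′ on the strand of the gene, with matches to the N-box of Hes proteins (CACNAG, either strand) in capitals. All 4 genes lie on the minus strand.
Notch1 chr2:26503823-26504072: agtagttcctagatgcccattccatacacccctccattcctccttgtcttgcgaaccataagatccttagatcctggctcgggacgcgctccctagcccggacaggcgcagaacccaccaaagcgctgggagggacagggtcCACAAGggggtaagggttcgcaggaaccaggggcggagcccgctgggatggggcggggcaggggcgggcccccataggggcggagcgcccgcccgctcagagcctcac
Notch3 chr17:32166891-32167140: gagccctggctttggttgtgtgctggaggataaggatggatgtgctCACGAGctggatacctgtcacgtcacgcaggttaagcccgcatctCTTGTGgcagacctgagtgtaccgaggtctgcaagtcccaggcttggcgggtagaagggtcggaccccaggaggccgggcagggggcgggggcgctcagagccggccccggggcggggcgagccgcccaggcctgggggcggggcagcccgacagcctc
Jag1 chr2:137116521-137116770: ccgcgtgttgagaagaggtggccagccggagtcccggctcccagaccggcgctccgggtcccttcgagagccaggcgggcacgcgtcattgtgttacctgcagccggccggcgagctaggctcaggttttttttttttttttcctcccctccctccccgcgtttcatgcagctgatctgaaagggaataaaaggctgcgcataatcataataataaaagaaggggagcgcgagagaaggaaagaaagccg
Jag2 chr12:112929496-112929745: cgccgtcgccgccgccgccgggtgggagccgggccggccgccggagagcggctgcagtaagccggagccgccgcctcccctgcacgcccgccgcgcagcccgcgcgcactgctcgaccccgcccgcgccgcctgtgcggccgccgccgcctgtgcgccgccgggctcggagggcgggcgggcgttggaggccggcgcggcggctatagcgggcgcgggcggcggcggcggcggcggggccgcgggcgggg

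Notch1 held 1 N-box match, at position -108 from the start site, and Notch3 held 2, at -204 and -159. Notch2, which did not pass between genotypes, also held 1, at -247. The windows of Jag1, Jag2, Notch4 and Dll1 held none. An N-box match was present in 36.7% of the 32851 mouse promoter windows of this length. The RBPJ core TGGGAA, searched on both strands, was in 0 of the 8 windows and in 21.6% of all promoters. Jag1 and Jag2 differed in composition, with 57.2% G and C in the Jag1 window and 87.2% in that of Jag2, against a median of 52.4% over all promoters. The Jag2 window held 5 GC boxes (GGGCGG, either strand), as did those of Notch1 and Notch2, and Notch3 held 4. A GC box was in 32.7% of all promoters. None of the printed N-box matches overlapped a GC box. These matches describe letters in the windows and do not show that any factor binds there.

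The first comparison asked how FFSS changed these genes in control cells. Notch3, Jag2, Hes1 and Hey1 fell and Jag1 rose, so that 4 of 9 tested genes were lower and 1 was higher, against 18.1% lower and 17.7% higher over all genes tested. Jag2 was the 1 gene called at more than 2-fold, against 5.93% of all genes. Over the 9 genes the log2 fold change had a median of -0.07, and over all genes tested it was 0.01.

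Among the receptors, Notch3 had 140, 142 and 135 CPM in the control static libraries and 87.2, 52.2 and 75.6 CPM in the control FFSS libraries. The groups did not overlap, and replicate 1, the library that stood apart, had the highest level under FFSS. Notch3 fell by 0.95 on the log2 scale (SE 0.14, adjusted p = 0.000439), and by 1.12 (adjusted p = 1.17e-06), past the 2-fold limit, without replicate 1. Notch3 is the receptor known best from vascular smooth muscle and pericytes. Smooth muscle and pericyte markers summed to 701 to 752 CPM in control static and 736 to 1316 CPM in control FFSS libraries, and Myh11 had at most 10 counts in any library. The higher sum was carried by Acta2, at 347, 380 and 335 CPM in static and 346, 1012 and 976 CPM in FFSS libraries. Cspg4, a marker of pericytes, went the way of Notch3, from 117, 91.6 and 101 CPM to 68.8, 15.97 and 12.03 CPM (log2 fold change -1.68, SE 0.54, adjusted p = 0.0391). Pdgfrb, of the same list, did not, with 288, 263 and 264 CPM in static and 321, 253 and 327 CPM in FFSS libraries. The paper states that its Ocy454 cells were a single-cell sub-clone, so these values are given as levels of genes in that line. Their relation to the change of Notch3 was not tested.

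Notch2, the receptor with the highest level, had 236, 219 and 213 CPM in static and 207, 205 and 223 CPM in FFSS libraries of control cells, and these ranges overlapped. The log2 fold change was -0.07 (SE 0.07, adjusted p = 0.465). Notch1, a receptor with wide roles in cell fate, had 33.3, 33.9 and 30.6 CPM in static and 27.9, 32.9 and 39.4 CPM in FFSS libraries, with a wider spread under FFSS. Its log2 fold change was 0.03 (SE 0.12, adjusted p = 0.848). Notch4, an endothelial receptor, had 16 to 25 counts in these 6 libraries, a log2 fold change of 0.32 and an adjusted p of 0.35.

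The Jagged ligands moved in opposite directions. Jag1 had 51.3, 47.3 and 44.9 CPM in static and 54.1, 79.5 and 90.1 CPM in FFSS libraries, and every FFSS library was above every static library. Jag1 rose by 0.64 on the log2 scale (SE 0.14, adjusted p = 0.00458). Jag2 had 55.5, 50.7 and 57.8 CPM in static libraries and 32.0, 10.6 and 12.1 CPM in FFSS libraries. It fell by 1.59 on the log2 scale, a 3.00-fold change (SE 0.34, adjusted p = 0.00718), and the groups did not overlap. Replicate 1 was the closest to the static libraries for both ligands. Without it Jag2 fell by 2.26 (adjusted p = 1.96e-18) and the log2 fold change of Jag1 was 0.83 (adjusted p = 2.8e-11). With only the 6 control libraries in the fit, Jag2 had the same direction and size, -1.58, with an adjusted p of 0.0505.

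Per length, the ratio of Jag2 to Jag1 was 1.56, 1.54 and 1.85 in the control static libraries and 0.849, 0.193 and 0.194 in the control FFSS libraries. Jag2 was therefore the more abundant Jagged transcript in each static library of the controls and Jag1 in each FFSS library. The sum of both ligands per length changed less, from 20.6 to 22.5 CPM per kb in static to 16.3 to 18.5 CPM per kb in FFSS libraries. Dll1, a Delta-like ligand, had 10, 16 and 12 counts in static and 16, 19 and 29 counts in FFSS libraries. Its log2 fold change was 0.67 (SE 0.31, adjusted p = 0.109), and 0.82 (adjusted p = 0.0376) without control FFSS replicate 1.

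**Figure D2:**
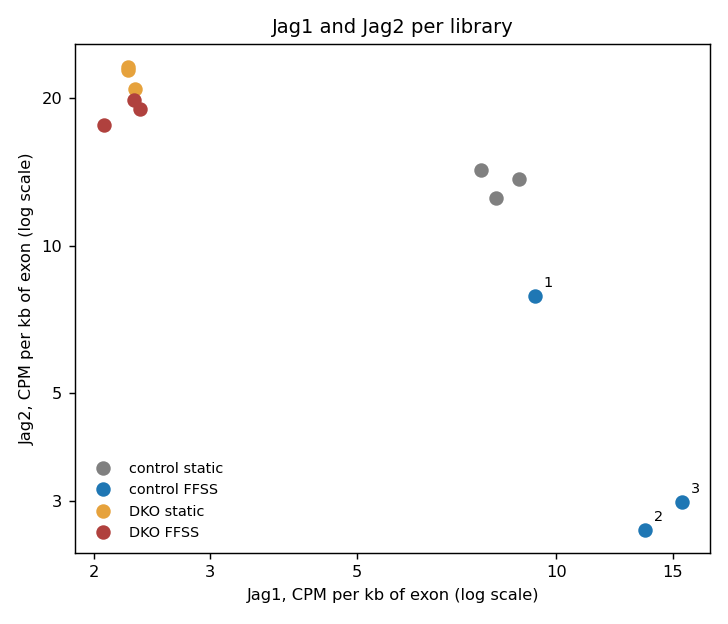
Jag2 against Jag1 in each of the 12 libraries, both as CPM per kb of exon on log axes, with the control FFSS libraries numbered by replicate. The DKO libraries sit at 2.07 to 2.35 for Jag1 and above 17.6 for Jag2, the control static libraries lie between, and control FFSS replicates 2 and 3 lie farthest to the lower right, with replicate 1 nearest the static libraries.

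Of the target genes, Hey1 and Hes1 fell in control cells under FFSS. Hey1, a repressor of the Hey family, had 53, 70 and 69 counts in static and 43, 25 and 34 counts in FFSS libraries. It fell by 0.98 on the log2 scale (SE 0.18, adjusted p = 0.00151), and the groups did not overlap. Without control FFSS replicate 1 it fell by 1.21 (adjusted p = 1.59e-05), past the 2-fold limit. Hes1, the Hes repressor with the highest level here, had 67.3, 66.9 and 67.5 CPM in static and 59.5, 53.7 and 58.5 CPM in FFSS libraries. It fell by 0.23 (SE 0.08, adjusted p = 0.0351), a small change with static libraries very close together. Hes1 no longer passed when library totals alone set the scale (-0.11, adjusted p = 0.283), with only the 6 control libraries in the fit (adjusted p = 0.0606) or when any control static library or control FFSS replicate 2 or 3 was left out (adjusted p = 0.0592 to 0.122). Heyl, a further Hey repressor, had 14, 18 and 17 counts in static and 21, 14 and 10 counts in FFSS libraries, and these overlapped.

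The same comparison in DKO cells gave 1 gene past the test among the 9, Hes1, which was higher. Over all genes tested 0.376% were higher and 0.497% were lower, and 0.0872% were called at more than 2-fold, with none of the 9 among them. This count comes from the fit that shares 1 estimate of the spread over all 12 libraries, control FFSS replicate 1 included. Without that library 4 of the 9 genes passed, where 10.5% of all genes did, and 4 also passed with only the 6 DKO libraries in the fit, where 11.9% of all genes did. Their median log2 fold change was -0.05 against -0.01 for all genes.

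Hes1 had 68.3, 54.7 and 66.4 CPM in DKO static libraries and 82.7, 90.8 and 82.5 CPM in DKO FFSS libraries. All 3 FFSS libraries were above all 3 static libraries, and Hes1 rose by a log2 fold change of 0.43 (SE 0.08, adjusted p = 0.0264). Hes1 no longer passed without any 1 of the 3 control static libraries, DKO static replicate 2 or 3 or any DKO FFSS library, with adjusted p-values of 0.053 to 0.16 and log2 fold changes of 0.34 to 0.47. Hey1 had 48.0, 45.3 and 48.5 CPM in static and 35.6, 41.2 and 35.6 CPM in FFSS libraries. These ranges did not overlap, and its log2 fold change was -0.34 (SE 0.11, adjusted p = 0.172), and the adjusted p was 0.00205 without control FFSS replicate 1 and 0.0497 with DESeq2. Heyl had 0, 0 and 8 counts in DKO static and 0, 0 and 3 counts in DKO FFSS libraries.

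Among receptors in DKO cells, Notch3 had 60.3, 54.3 and 58.3 CPM in static and 43.5, 40.4 and 44.9 CPM in FFSS libraries. The groups did not overlap, with a log2 fold change of -0.42 (SE 0.14, adjusted p = 0.203), and the adjusted p was 0.0236 without control FFSS replicate 1, 0.0119 without control FFSS replicate 2 and 5.33e-05 with only the DKO libraries in the fit. Notch1 had a log2 fold change of 0.02 (adjusted p = 0.98), Notch2 of -0.05 (adjusted p = 0.832) and Notch4 of -0.33 (adjusted p = 0.706). Jag1 had 13.1, 13.4 and 13.1 CPM in static and 13.4, 12.1 and 13.7 CPM in FFSS libraries and a log2 fold change of -0.02 (SE 0.16, adjusted p = 0.983). Jag2 had 92.7, 84.8 and 93.9 CPM in static and 80.3, 71.6 and 77.04 CPM in FFSS libraries. Its log2 fold change was -0.25 (SE 0.31, adjusted p = 0.825), and the adjusted p was 0.0067 without control FFSS replicate 1. Dll1 had a log2 fold change of 0.18 (adjusted p = 0.86).

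**Figure D3:**
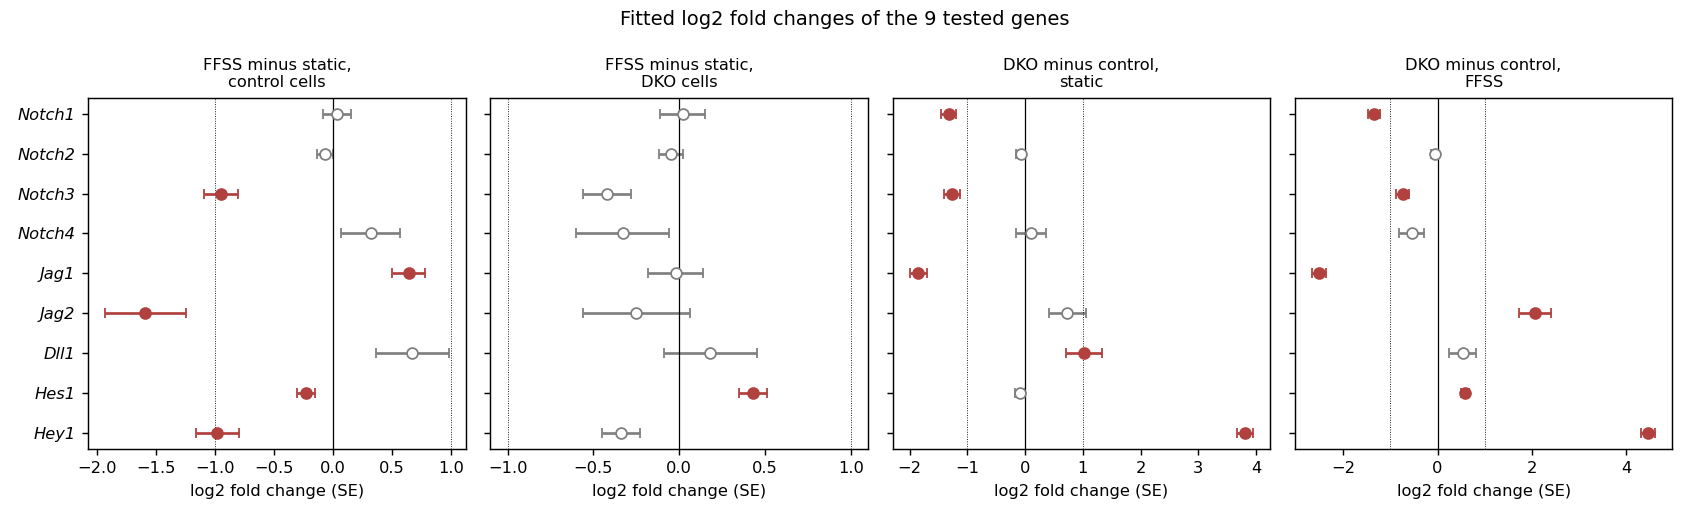
Fitted log2 fold changes of the 9 tested genes with their standard errors in 4 comparisons, each with its own horizontal scale. Filled red points have an adjusted p under 0.05, open grey points do not, and dotted lines mark a 2-fold change; the genotype panels are wider, reaching 4.46 for Hey1.

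Whether FFSS acted differently in the 2 genotypes was tested by the interaction term. Hes1 was the 1 gene of 9 that passed, with a difference of 0.67 between its log2 fold change in DKO cells and that in control cells (SE 0.11, adjusted p = 0.00726). Over all genes 2.28% had a higher and 1.68% a lower log2 fold change in DKO cells, and 0.651% differed by more than 2-fold, with none of the 9 genes among them. The difference of Hes1 lay between 0.56 and 0.73 and passed the test in each of 19 alternative fits. The fitted change of Hes1 under FFSS was downward in control libraries and upward in DKO libraries. The interaction tests the difference between the 2 responses and not the sign of each. Taken alone, the fall in control cells no longer passed in 7 of 20 alternative fits and the rise in DKO cells in 8 of 20.

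The differences of the other genes did not pass in the edgeR fit with all 12 libraries. The interaction was 1.34 for Jag2 (SE 0.46, adjusted p = 0.132), -0.66 for Jag1 (SE 0.22, adjusted p = 0.103), 0.65 for Hey1 (SE 0.21, adjusted p = 0.102) and 0.53 for Notch3 (SE 0.20, adjusted p = 0.141). With DESeq2 on the same libraries Jag1 (-0.65, adjusted p = 0.0463) and Hey1 (0.66, adjusted p = 0.042) passed. Without control FFSS replicate 1 all 4 passed with edgeR, where 37.6% of all genes did. The interaction was then 2.02 for Jag2 (adjusted p = 7.82e-15), -0.84 for Jag1 (adjusted p = 8e-07), 0.87 for Hey1 (adjusted p = 0.00271) and 0.70 for Notch3 (adjusted p = 0.00284). For Jag2 and Notch3 passing the test thus depended on that library, and for Jag1 and Hey1 on that library or on the tool. Notch1, Notch2, Notch4 and Dll1 did not pass in either fit.

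More of the 9 genes were called between the genotypes than under FFSS. In static culture 2 of the 9 genes were higher and 3 were lower in DKO cells, against 27.0% higher and 27.2% lower over all genes, and all 5 were called at more than 2-fold, against 15.3% of all genes. Under FFSS 3 genes were higher and 3 lower, against 27.0% and 29.6% of all genes, with 4 called against 17.2%. The 9 genes had a median log2 fold change of -0.08 in static culture and -0.06 under FFSS, with 0.01 and -0.05 for all genes. Both comparisons of genotypes use libraries that the FFSS comparisons also use, so their values are given side by side.

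Hey1 showed the greatest difference of the 9 genes. Static controls had 53, 70 and 69 counts, static DKO libraries had 872, 825 and 873 counts, under FFSS the counts were 43, 25 and 34 against 643, 692 and 637. Hey1 was higher by 3.81 on the log2 scale in static culture, or 14.0-fold (SE 0.14, adjusted p = 7.92e-11), and by 4.46 under FFSS, or 22.0-fold (SE 0.15, adjusted p = 4.46e-11). Hes1 did not follow Hey1. Its static levels overlapped between genotypes, with a log2 fold change of -0.09 (SE 0.08, adjusted p = 0.355), and under FFSS it was higher in DKO cells by 0.58 (SE 0.08, adjusted p = 2.73e-05). The ratio of Hey1 to Hes1 per length was 0.0385 to 0.0504 in control static and 0.650 to 0.765 in DKO static libraries.

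Heyl, not tested, had 0, 0 and 8 counts in static DKO libraries where the static controls had 14 to 18. With no filter on low counts its fitted log2 fold change was -2.49 in static culture (adjusted p = 0.0197) and -3.56 under FFSS (adjusted p = 0.00738). These fitted values rest on libraries at 0 counts and give no size of the difference.

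Notch1 and Notch3 were lower in DKO cells. Notch1 had 11.5, 14.4 and 13.2 CPM in DKO static libraries, under each of the control static values given above, and 14.9, 12.1 and 12.53 CPM in DKO FFSS libraries. It was lower by a log2 fold change of -1.32 in static culture (SE 0.13, adjusted p = 9.14e-07) and of -1.34 under FFSS (SE 0.13, adjusted p = 7.92e-07). Notch3 differed by -1.27 in static culture (SE 0.14, adjusted p = 8.53e-06) and by -0.74 under FFSS (SE 0.14, adjusted p = 0.000728), where it was -0.57 (adjusted p = 0.000641) without control FFSS replicate 1. Notch2 had 188, 230 and 216 CPM in DKO static and 211, 193 and 205 CPM in DKO FFSS libraries, overlapping the controls, with log2 fold changes of -0.08 (adjusted p = 0.409) and -0.06 (adjusted p = 0.53). Notch4 had 9 to 20 counts in DKO libraries, with log2 fold changes of 0.10 (adjusted p = 0.793) and -0.55 (adjusted p = 0.0874).

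These differences changed the makeup of the receptor transcripts. Per length, Notch2 made up 50.9% to 53.1% of the 4 receptors in control static libraries, 60.4% to 68.6% in control FFSS, 67.9% to 73.6% in DKO static and 75.0% to 75.5% in DKO FFSS libraries. The share of Notch3 was 41.1% to 43.0% in control static, 22.8% to 33.2% in control FFSS, 22.6% to 28.5% in DKO static and 20.3% to 21.4% in DKO FFSS libraries. The sum of the 4 receptors was 39.4 to 42.2 CPM per kb in control static and 26.3 to 29.8 CPM per kb in DKO static libraries.

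Of the ligands, Jag1 was lower in DKO cells by a log2 fold change of -1.85 in static culture, or 3.61-fold (SE 0.15, adjusted p = 5.58e-07), and of -2.51 under FFSS, or 5.71-fold (SE 0.15, adjusted p = 3.67e-08). All 6 DKO libraries lay between 12.1 and 13.7 CPM, against 44.9 CPM or more in every control library. Jag2 was 2.07 higher on the log2 scale in DKO cells under FFSS, or 4.19-fold (SE 0.34, adjusted p = 0.000623), and 2.74 higher (adjusted p = 3.38e-21) without control FFSS replicate 1. In static culture every DKO library was above every control library for Jag2 but the log2 fold change of 0.73 did not pass (SE 0.32, adjusted p = 0.0818), and the adjusted p was 1.44e-11 without control FFSS replicate 1, 0.0357 without control FFSS replicate 2 and 0.0231 with limma-voom. The ratio of Jag2 to Jag1 per length was 9.07 to 10.3 in DKO static and 8.08 to 8.62 in DKO FFSS libraries. Dll1 had 20, 31 and 23 counts in DKO static libraries and was higher than in control static by 1.02 on the log2 scale (SE 0.31, adjusted p = 0.0112), a low-count call that was lost without DKO static replicate 2 (0.83, adjusted p = 0.0573). Under FFSS its log2 fold change was 0.53 (adjusted p = 0.121), and it was 0.81 (adjusted p = 0.0339) without control FFSS replicate 3.

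**Figure D4:**
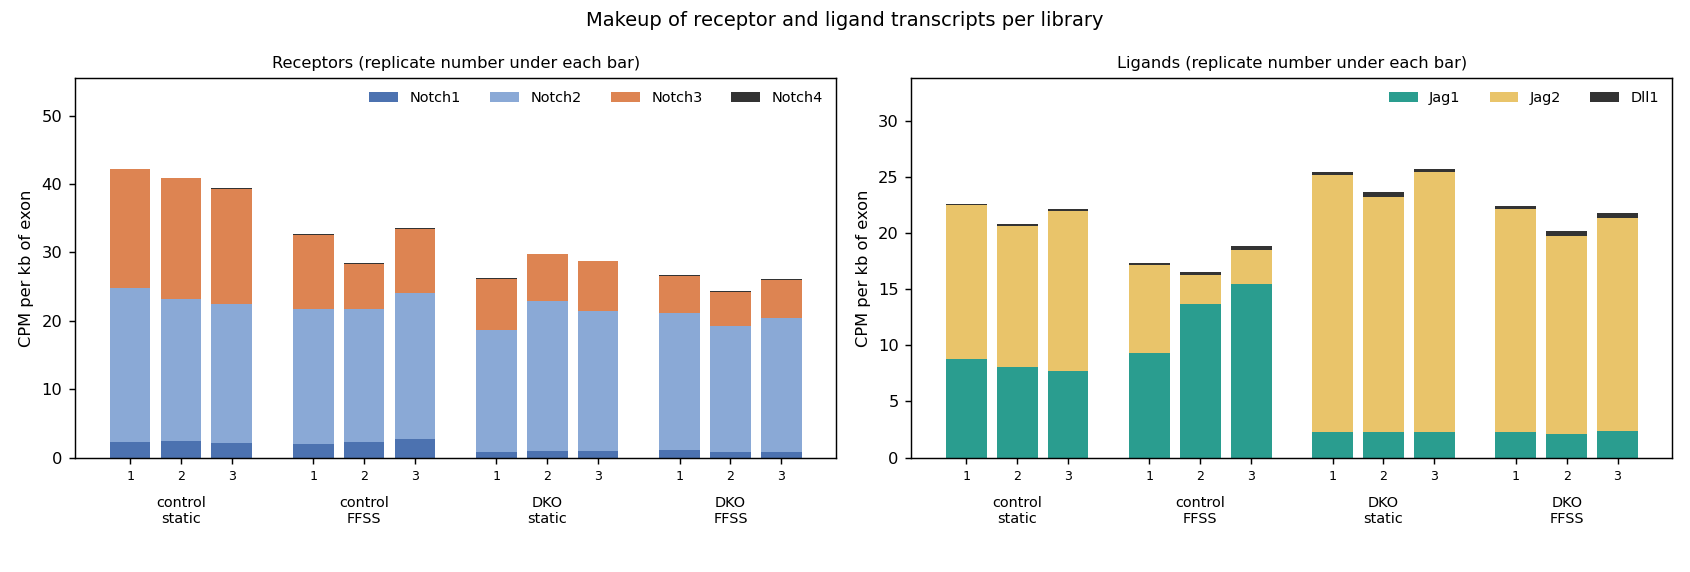
Stacked CPM per kb of exon of the 4 receptors and of the 3 ligands in each library, with replicate numbers under the bars. Notch2 forms 50.9% to 75.5% of the receptor total in every library while the Notch3 part is smaller outside the control static group, and Jag2 dominates the ligand bars in the DKO libraries.

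The rest of the pathway was described from a list of 44 further genes ordered by role, of which 39 were tested. Dll3, Dner, Mfng, Dtx1 and Hes5 did not pass the filter. FFSS in control cells raised 5 of the 39 and lowered 9, against 17.7% and 18.1% of all genes, with none called at more than 2-fold, against 5.93%, and the list had a median log2 fold change of -0.08 against 0.01 for all genes. The 14 genes past the test became 5 with only the 6 control libraries in the fit, where 16.5% of all genes passed, and 23 without control FFSS replicate 1, where 55% of all genes passed. As single libraries were left out the number lay between 7 and 23, and the share of all genes between 24.2% and 55%. In DKO cells 0 of the 39 passed under FFSS with edgeR, DESeq2 or limma-voom, where 0.872%, 3.69% and 0.738% of all genes did. An unadjusted p under 0.05 was found for 9 of the 39, without a share over all genes to set beside it. Without control FFSS replicate 1, 5 passed, where 10.5% of all genes did. In static culture 13 were higher and 9 lower in DKO cells, with 6 called, against 27.0%, 27.2% and 15.3% of all genes. Under FFSS 16 were higher and 9 lower, with 6 called, against 27.0%, 29.6% and 17.2%. By the interaction term 2 of the 39 passed, Fbxw7, higher, and Furin, lower, against 2.28% and 1.68% of all genes, and 21 passed without control FFSS replicate 1, where 37.6% of all genes did.

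Of the ligand-like genes, Dlk1, a Delta-like protein that lacks the domain for activating Notch, rose from 38, 31 and 43 counts in the static controls to 797, 721 and 797 counts in static DKO libraries. It was 21.6-fold higher in static culture (log2 fold change 4.43, SE 0.11, adjusted p = 5.18e-12) and 19.5-fold higher under FFSS. Dll4, the Delta-like ligand of sprouting endothelium, had at most 7 counts in a library. Lfng, a Fringe enzyme that adds sugar to Notch and changes its choice of ligand, was higher in DKO static cells by 1.07 on the log2 scale (SE 0.12, adjusted p = 2.68e-06), from 14.8 ± 1.70 to 31.1 ± 1.27 CPM (SD, n = 3).

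The 4 genes of O-fucosylation and cleavage were higher in DKO cells in both conditions, against 27.0% of all genes in each. In static culture Adam10, the protease of the ligand-induced cut, differed by 0.87 (SE 0.11, adjusted p = 1.97e-05), Furin, which processes the receptor on its way to the surface, by 0.60 and Pofut1, which fucosylates it, by 0.36 on the log2 scale. Of the 7 gamma-secretase genes, 2 were higher and 1 lower in static culture, against 27.0% and 27.2% of all genes, with Psen2, a catalytic subunit, at 0.80 (adjusted p = 0.000337) and Aph1a at -0.89 (adjusted p = 4.69e-07). FFSS in control cells raised Furin by 0.54 (SE 0.07, adjusted p = 7.86e-05).

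The ubiquitin ligase Neurl1b, of a family that drives ligand uptake, fell by 0.98 under FFSS in control cells (SE 0.21, adjusted p = 0.00455). Its counts were 374, 336 and 389 in static and 281, 153 and 149 in FFSS libraries, and it was lower in DKO static cells by a log2 fold change of -2.10 (SE 0.23, adjusted p = 7.37e-06). Dtx4, a Deltex ubiquitin ligase, had 18, 27 and 36 counts in the static DKO libraries, where the static controls had 761, 787 and 787. The log2 fold change was -4.77 (SE 0.20, adjusted p = 4.91e-10). Under FFSS the difference was -4.35. Fbxw7, which targets the Notch intracellular part for degradation, fell by 0.56 under FFSS in control cells (SE 0.10, adjusted p = 0.00102) and was higher in DKO cells by 0.59 in static culture and 1.21 under FFSS (adjusted p = 1.51e-07).

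In the nuclear complex, Rbpj was lower in DKO cells by a log2 fold change of -0.39 in static culture (SE 0.10, adjusted p = 0.00528) and of -0.59 under FFSS. The Mastermind genes did not move together. Maml3 was higher by 1.09 in static culture (SE 0.13, adjusted p = 1.01e-05) and by 1.07 under FFSS, Maml1 was higher by 0.52 in static culture, and Maml2 was lower by a log2 fold change of -0.66 in static culture and -1.08 under FFSS (adjusted p = 2.88e-06). Of the further targets, Hey2, also of the Hey family, rose from 40, 28 and 33 counts in the static controls to 74, 83 and 110 counts in static DKO libraries, or by 1.47 (SE 0.27, adjusted p = 0.000389). Nrarp, a target that feeds back on Notch, had 8 to 26 counts per library and did not pass in any comparison. Hes5 had at most 2 counts in a library.

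**Figure D5:**
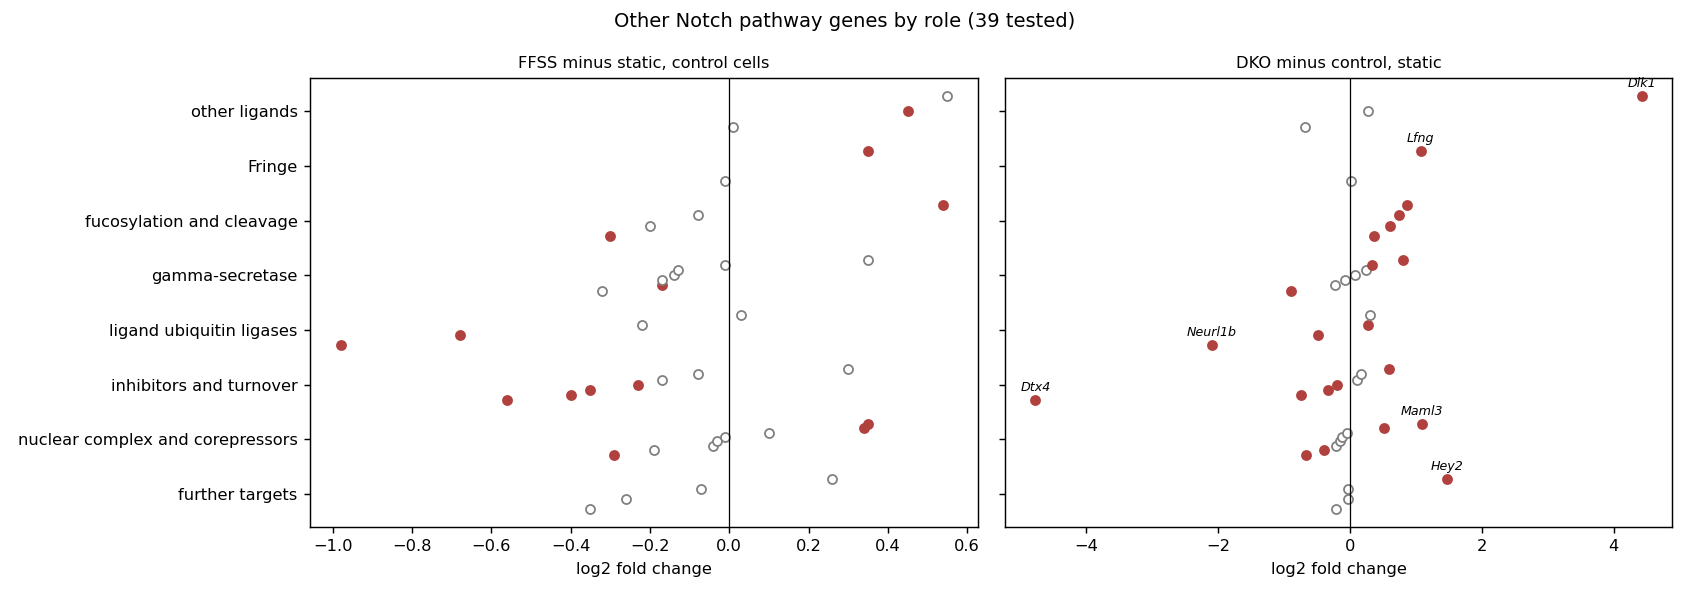
Log2 fold changes of the 39 tested pathway genes outside the 10, grouped by role, for FFSS in control cells and for genotype in static culture, on separate scales. Filled red points have an adjusted p under 0.05, open grey points do not, and names mark genes past 2-fold, from Dtx4 at -4.77 to Dlk1 at 4.43.

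As a description of likeness, Pearson's r of log2 CPM over the 12 libraries was computed between each tested gene and 11261 other genes. The 12 libraries share 4 groups, so r mostly follows the group means, and no test was made. Jag2 was most like Ptprr (0.998) and Klhl25 (0.996), Jag1 most like Trim30a and Mid1 (0.996 for both), and Hey1 most like Pbxip1 and 0610031J06Rik (0.998 for both). Notch1 was most like Nup214 (0.993) and Kif13a (0.991), and Notch3 most like Rora (0.987) and Bag6 (0.985). The genes with smaller group differences had weaker matches, with Notch2 at 0.903 to Vps13b, Hes1 at 0.903 to Ankrd54, Dll1 at 0.938 to A2ld1 and Notch4 at 0.831 to B4galnt4.

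In mm9, the build of the counts, Notch1 (ENSMUSG00000026923) spans chr2:26313423-26372183, Notch2 (ENSMUSG00000027878) chr3:97817461-97954290, Notch3 (ENSMUSG00000038146) chr17:32257765-32303825 and Notch4 (ENSMUSG00000015468) chr17:34701213-34725448. Jag1 (ENSMUSG00000027276) spans chr2:136907192-136942380, Jag2 (ENSMUSG00000002799) chr12:114146801-114167706 and Dll1 (ENSMUSG00000014773) chr17:15504318-15513836. Hes1 (ENSMUSG00000022528) spans chr16:30064470-30067882, Hey1 (ENSMUSG00000040289) chr3:8663362-8667039 and Heyl (ENSMUSG00000032744) chr4:122910799-122927118. Each is a protein-coding gene counted over all its exons. Notch1 shares exon sequence with 2 genes on the opposite strand, which had 73 and 0 counts over the 12 libraries, against 5279 for Notch1. Notch3 and Dll1 each share exon sequence with 1 such gene, at 5 counts against 17615 for Notch3 and at 12 against 257 for Dll1.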

How the data were processed

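RNA-seq was performed by the study on total RNA of 12 libraries. The authors deposited a table of unnormalised read counts for each library, made from single-end reads by alignment with STAR to mm9 and counting with HTSeq, with Ensembl genes and without strand. Reads shared by overlapping genes or aligned to several places are not counted, which lowers the counts of such genes. The HTSeq version is not given here because the sources name more than one. Special HTSeq lines were left out of library sizes and tests and and reads in no gene were 5.10% to 10.04%.

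Genes at 0 counts in 2 or more libraries were removed, as in the study's methods. The edgeR (4.0.16) robust quasi-likelihood F test with TMM factors was fitted to all 4 groups, with Benjamini-Hochberg adjustment over 14904 genes, adjusted p under 0.05 and a 2-fold limit for calls. SE is the log2 fold change divided by the square root of F. Alternatives used other scaling, filters and library subsets, DESeq2 (1.42.0), limma-voom (3.58.1), a replicate block, and each library left out. Exon lengths came from GENCODE vM1, and 98.9% of gene IDs had a symbol. All 10 genes were named, as were pathway genes called at 2-fold and at most 3 more per role. The genes and lists were chosen with earlier results of these data known. Drawing used matplotlib (3.10.9) in Python (3.11.15), and R was 4.3.3.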

Additional observations from a re-analysis of the deposited data

Results flagged for a closer look

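By the interaction test, the response to FFSS differed between genotypes for 1 of the 9 genes and 2 of the 39 pathway genes. Over all genes tested 2.28% had a higher and 1.68% a lower log2 fold change in DKO cells. Each value is the difference of the log2 fold change in DKO cells from that in control cells. The difference was 0.67 for Hes1 (adjusted p = 0.00726), from -0.23 in control to 0.43 in DKO cells. It was 0.63 for Fbxw7 (SE 0.14, adjusted p = 0.0232), and -0.39 for Furin (SE 0.09, adjusted p = 0.0365). Hes1 passed in all 19 alternative fits. Fbxw7 no longer passed in 9 and Furin in 11 of 19, with adjusted p up to 0.0692 and 0.0978, and both kept their direction.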

How the results depend on the processing

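Over the alternative fits of single log2 fold changes, 1195 values kept their direction and side of the threshold, 28 came to pass the test, 42 no longer passed and 20 reversed. The number of the 9 genes past the test under FFSS in control cells was 5 in the main fit (35.8% of all genes). It was 3 with only the 6 libraries compared (16.5%). The number called there at more than 2-fold was 0 in that fit (3.04% of all genes), 2 with limma-voom (5.65%) and 1 to 3 as single libraries were left out (3.3% to 11.3%), with 3 without control FFSS replicate 1 (11.3%). Under FFSS in DKO cells 4 passed with only those 6 libraries (11.9% of all genes), 2 with DESeq2 (3.69%) and 0 to 4 with a library left out (0.0866% to 10.5%). For the interaction 3 passed with DESeq2 (9.59% of all genes) and 1 to 5 with a library left out (1.2% to 37.6%), of which 0 to 1 were called (0.28% to 7.6%). Without control FFSS replicate 1, 5 passed and 1 was called, and 21 of the 39 pathway genes passed (37.6% of all genes passed). The cause was not tested.

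None of the reversed values passed the test. As single libraries were left out the log2 fold change of Notch1 ranged from -0.10 to 0.15 (FFSS in control cells), -0.08 to 0.10 (FFSS in DKO cells) and -0.13 to 0.12 (interaction). That of Notch2 ranged from -0.13 to 0.01 (FFSS in DKO cells), -0.06 to 0.09 (interaction) and -0.14 to 0.00 (genotype, static). Jag1 ranged from -0.06 to 0.03 (FFSS in DKO cells), Notch4 from -0.01 to 0.16 and Hes1 from -0.15 to 0.00 (both genotype, static). With library totals alone Notch2 was at 0.05 for FFSS in control cells and -0.10 for the interaction; with this scaling the median of all genes was 0.131 and -0.13 in those comparisons, against 0.007 and -0.017 with TMM factors, and -0.246 against -0.051 for genotype under FFSS, where Notch2 (-0.26, adjusted p = 0.0105) and Notch4 (-0.75, adjusted p = 0.0239) then passed.

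Same-numbered libraries showed no shared deviation (mean r 0.00226 over 18 pairs, against -0.00116 over 36 pairs with different numbers). This does not show how they were handled, and whether the numbers pair the samples is not stated. With a replicate block the counts of the 9 genes were the same in all 5 comparisons (5 past the test under FFSS in control cells), and Furin no longer passed the interaction test (adjusted p = 0.0523). Counts of at most 31 per library limit Notch4, Dll1 and Heyl.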
